A study of Rattus norvegicus with 12 samples.

Results

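The 6 control arrays of a series of 12 two-colour microarrays are described here, each by the ratio of a control animal's RNA to a common reference RNA. They are the arrays whose titles name the control member of an animal pair. The 6 arrays of alcoholic animals were not used. The study set ethanol-treated rats against paired controls in tissue called NTS, taken here as the nucleus tractus solitarius.

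The punches were cut from brain slices 250 µm thick and combined, and the RNA was isolated and amplified before indirect labelling. Hybridisation ran overnight at 37 °C in a shaker at 50 rpm. The control animals carry no further description in the labels: strain, age, sex, diet and the way the pairs were matched are not given in the sources used here. All 6 share the reference RNA in Cy3 and their own RNA in Cy5, with the dyes in the same orientation on every array, so a dye effect stays in every ratio. The make-up of the reference is not given, and its organism label reads "unidentified" beside rat. A positive log2 ratio is therefore likely a higher signal in the control punch than in the reference, and every sign turns if the deposited values run the other way.

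The nucleus tractus solitarius lies in the dorsal medulla and is the first central relay for vagal and glossopharyngeal afferents from the heart, lungs and gut. It sets the baroreflex and takes part in breathing, feeding and nausea. Its neurons use glutamate and GABA together with catecholamines and many neuropeptides, and they sit among astrocytes, oligodendrocytes, microglia and a dense capillary bed. In a bulk punch, fewer cells of a type and less RNA per cell cannot be told apart. A ratio to a reference is also not an abundance: a gene far above the reference may be scarce in both RNAs.

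The array holds 18144 features, of which 10118 carry a single gene symbol, 1092 carry several and 6934 carry none. Exact zeros, 484 to 726 on an array, were set to missing. Each array was then centred on its median, because the deposited medians ran from 0.35 to 1.85. Features of the same symbol were averaged, and 4493 genes had a value on at least 5 of the 6 arrays (4383 on all 6 and 110 on 5). Ratios are on the log2 scale, so 1 is 2-fold above the array median and -1 is 2-fold below it. A gene was called when limma's treat test placed its mean beyond 2-fold with a Benjamini-Hochberg adjusted p under 0.05. This test holds the spread between the 6 animals and leaves out the reference's own spread.

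Of the 4493 genes, 563 (12.5%) were called above the reference and 790 (17.6%) below it. The median of the gene means was -0.06, the quartiles were -0.98 and 0.86, and the means ran from -4.88 to 4.32. The ratio was positive in every measured animal for 1637 genes and negative in every one for 1718. It exceeded 1 in every measured animal for 485 genes and lay under -1 in every one for 753. Without centring, the median of all genes became 0.86, and 1211 genes were called above and 300 below. The share of calls that lay above was then 80.1%, against 41.6% with centring, so all directions given here are relative to the array median. Tested against a ratio of 0 with limma's eBayes, 1714 genes (38.1%) passed above and 1811 (40.3%) below. With the exact zeros kept as values, 424 genes were called above and 739 below.

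The 6 animals gave similar profiles. Pearson's r between 2 arrays across genes ran from 0.85 to 0.95 with a median of 0.88, as a description of genes that share the array and the reference. Animals 1 and 2 were the closest pair, at 0.95. The first principal component held 37.6% of the variance over 4383 genes and set animals 1 and 2, at 29.5 and 23.6, apart from the other animals, at -19.3 to -9.70. The second held 26.6% and set animal 6, at 31.8, apart from the rest. The place of animal 6 on the first component changed when 2 stretches of feature numbers with shifted ratios, described below, were left out. Animals 1 and 2 were then at 27.2 and 19.4 and animals 3 to 5 at -17.8 to -15.4. Animal 6 lay between these groups, at 2.44. The SD of a gene over the animals had a median of 0.34 and quartiles of 0.25 and 0.48.

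The spread between animals was larger at the high end of the ratios. Genes with a mean between -3 and 2 had a median SD of 0.30 to 0.38, as did genes under -3. Genes with a mean of 2 to 3 had a median SD of 0.83, and those of 3 to 4 had 1.22. Missing values were also more frequent there: 0.12% of the values were missing among features with a mean under -3, 18.4% at 2 to 3, and 41.8% at 4 to 6. The 62 features over 6 had 6.99% missing. Between 1 and 2 in size the sides were alike, with a median SD of 0.35 above and 0.36 below. Means over 2 were also fewer (313 genes) than means under -2 (512), and 64 genes (1.42%) were called at 4-fold above against 336 (7.48%) at 4-fold below.

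**Figure D1:**
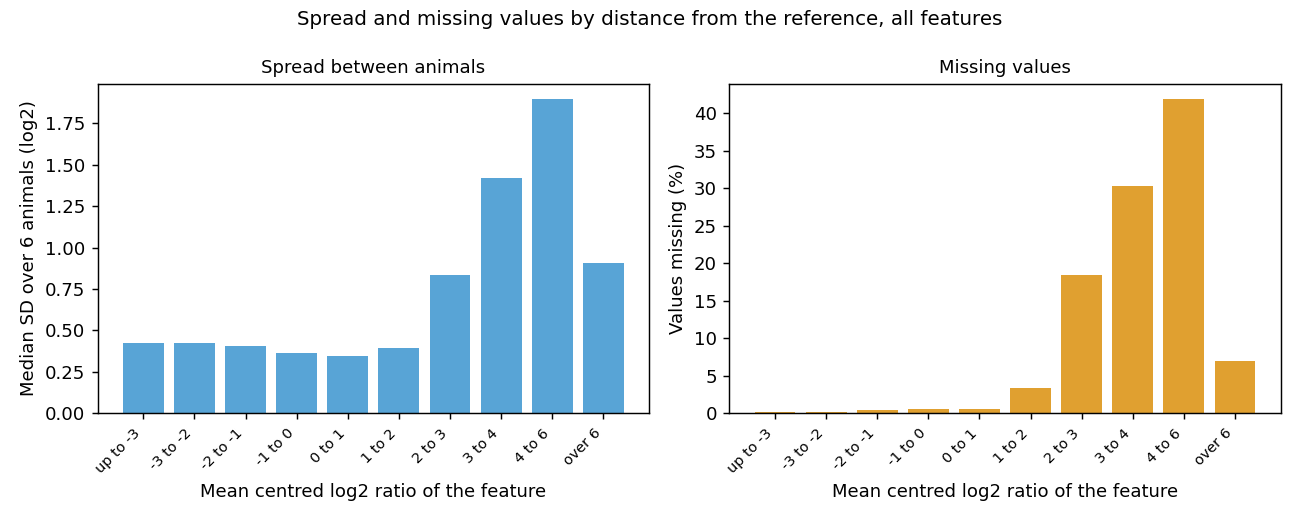
Median SD over the 6 control animals (left, log2 units) and percent of values missing (right) for features grouped by their mean centred log2 ratio to the reference. Both bars are low up to a ratio of 1 and rise from 2 upward, to 41.8% missing at 4 to 6; the bar over 6 holds 62 features.

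Where a gene was represented by more than 1 clone, the clones often differed. Neighbouring spots of the same clone gave r of 0.92 to 0.95 within an array over 5597 pairs, with a median difference of 0.14 to 0.20. Across 577 pairs of different clones annotated to the same gene, r of the mean ratios was 0.05, and 53.9% of the pairs lay on the same side of 0. Most genes, 4023, rest on 1 clone and 465 on several. The value of a gene named here is therefore mostly that of a single clone, not checked by another. Atp1b1, Stmn2, Aldoc, Col1a2, Cbln1, Cacnb2, Cdh5 and Hba-a1 average 2 clones. The features of albumin (Alb), for example, ran from -2.93 to 2.79 over 4 clones around a gene mean of -0.58 ± 0.31 (SD, n = 6).

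Of 25 gene lists with 1809 distinct genes, 702 genes were measured, and 235 of these were called. The counts of calls in every list are to be read beside the shares over all 4493 genes, 12.5% above and 17.6% below. Leaving out 1 animal in turn removed the call of 35 of the 235 in at least 1 of the 6 fits, keeping the zeros removed 32, and leaving the arrays uncentred removed 70, which had all been called below.

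**Figure D2:**
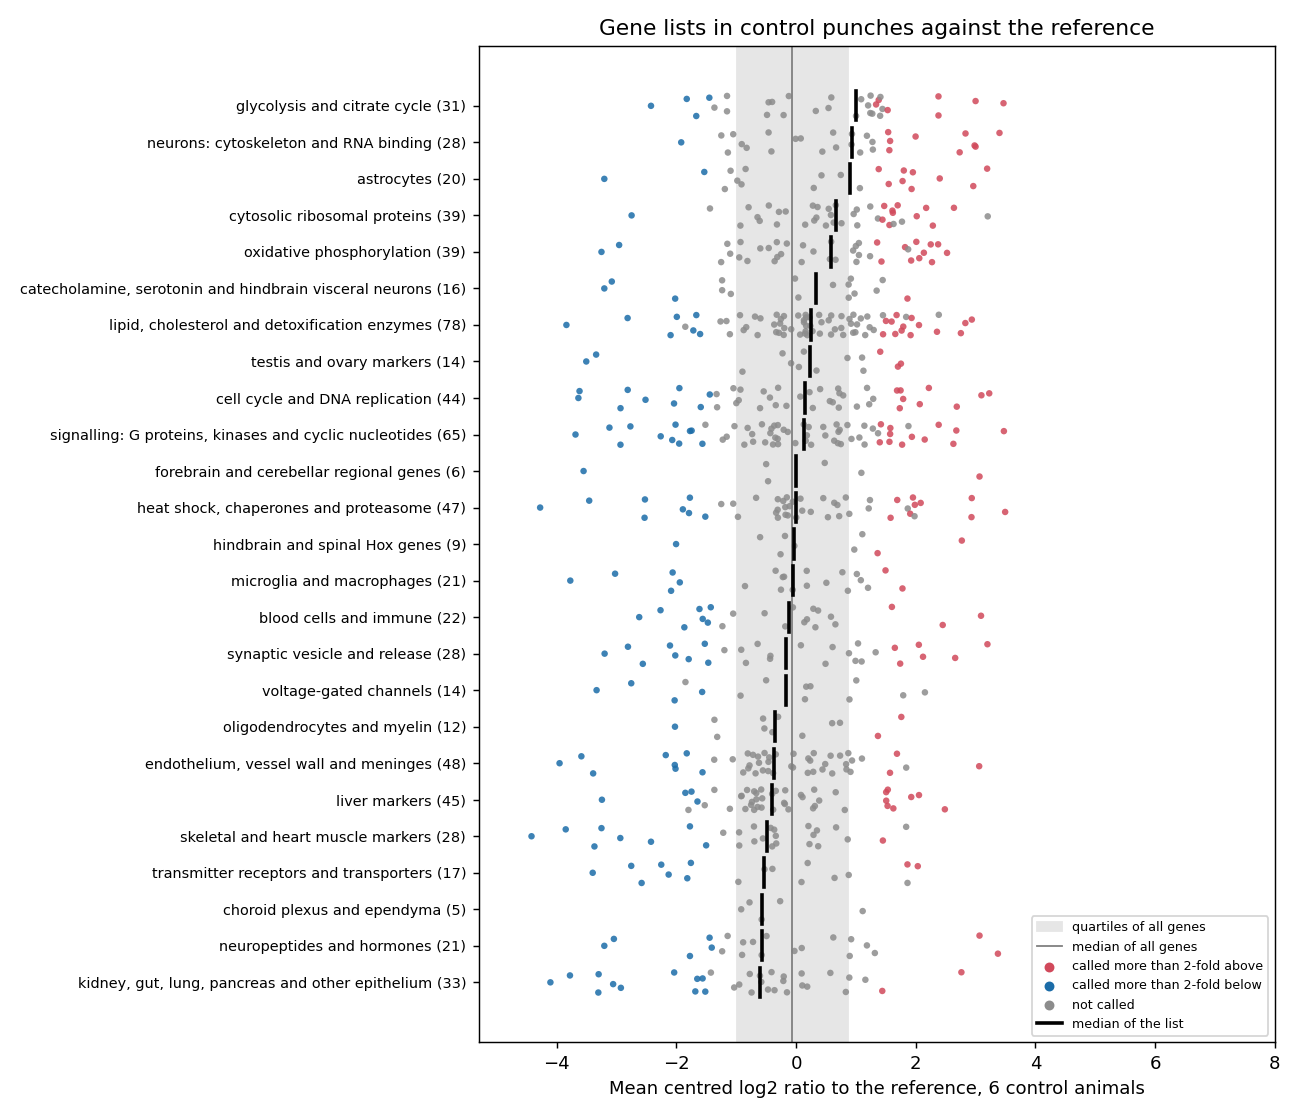
Mean centred log2 ratio of each measured member of the 25 gene lists (number measured in brackets), coloured by call, with the list median as a black line and the quartiles of all 4493 genes in grey. The medians of glycolysis, neurons and astrocytes lie near 1 and those of epithelium, neuropeptides, choroid plexus and transmitter receptors lie between -0.60 and -0.53.

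Genes of the neuronal cytoskeleton, growth and RNA binding had a median of 0.93 over the 28 measured of 71 listed. Of these, 9 (32.1%) were called above, 1 (3.57%) was called below and 18 were not called, beside 12.5% above and 17.6% below over all genes. The highest was Atp1b1, a beta subunit of the sodium pump, at 3.00, 3.36 and 3.90 in the lowest, median and highest animal (mean 3.40 ± 0.32, SD, n = 6, limma treat adjusted p = 3.56e-06). Neuron-specific enolase, Eno2, lay at 2.63, 2.90 and 3.56 (mean 3.00 ± 0.36, SD, n = 6, limma treat adjusted p = 9.82e-06). Every animal was above 2-fold for both genes, and the animals' values lay within a span of 1 log2 unit.

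Other neuronal genes called above were Ndrg4 at 2.98 ± 0.43 (SD, n = 6), the endoplasmic reticulum protein gene Rtn1 at 2.83 ± 0.41, Tagln3 at 2.00 ± 0.15 and the microtubule regulator Stmn2 at 1.54 ± 0.25. The growth cone protein gene Gap43 was at 2.73 ± 1.01 (SD, n = 5), and its call was lost with the zeros kept. Heavy neurofilament, Nefh, lay between 1.05 and 1.68 with a median of 1.21 and was not called (mean 1.28 ± 0.21, SD, n = 6, limma treat adjusted p = 0.063). Of the 12 defining neuron markers, 5 were measured. Eno2 and Stmn2 were called above, while Nefh, Syp and Elavl3 (-1.14 ± 0.49) were not called. The whole list did not move as a block. The microtubule protein gene Mapt was the only member called below, at -1.92 ± 0.39 (SD, n = 6), in animals from -2.45 to -1.44, and it was not called without centring.

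Genes of synaptic vesicles, release and the synaptic scaffold lay on both sides, with a median of -0.17 over 28 measured. Calls above numbered 6 (21.4%) and calls below 8 (28.6%), beside 12.5% and 17.6% of all genes. Above the reference were Atp6v1b2, a subunit of the vacuolar proton pump that acidifies vesicles (2.66 ± 0.43, SD, n = 6), the fusion ATPase gene Nsf (2.12 ± 0.24), the scaffold gene Shank1 (2.05 ± 0.33) and the vesicle SNARE gene Vamp1 (1.74 ± 0.14). Synaptophysin, Syp, was at 1.33 ± 0.36 and was not called. Below it were the scaffold gene Dlg1, at -3.56, -3.17 and -2.90 in the lowest, median and highest animal (mean -3.20 ± 0.26, SD, n = 6, limma treat adjusted p = 3.25e-06), and Shank2, at -2.98, -2.90 and -2.54 (mean -2.81 ± 0.19, limma treat adjusted p = 4.12e-06). Shank1 and Shank2 code for related scaffolds of excitatory synapses, and their animals' values did not overlap.

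Of 112 listed receptors and transporters of transmitters, 17 were measured. Of these, 7 (41.2%) were called below and 2 (11.8%) above, beside 17.6% and 12.5% of all genes. The list median was -0.53. Among the 5 ionotropic glutamate receptor subunits, counted separately after their values were seen, 3 were called below and 2 were not called. Gria3, an AMPA receptor subunit, lay at -4.10, -3.29 and -2.81 (mean -3.40 ± 0.52, SD, n = 6, limma treat adjusted p = 1.45e-05). Gria2, the subunit that sets calcium permeability of AMPA receptors, lay at -3.13, -2.72 and -2.42 (mean -2.75 ± 0.30, limma treat adjusted p = 1.12e-05). All 6 animals were more than 4-fold below the array median for both. The kainate receptor subunit genes differed from each other, with Grik2 at -2.25 ± 0.56 and Grik1 at -0.53 ± 0.24, and the NMDA receptor subunit gene Grin2d was at 0.09 ± 0.20.

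The nicotinic subunit gene Chrna4 (-2.13 ± 0.43, SD, n = 6), the GABA-A subunit gene Gabrd (-1.82 ± 0.34) and the vesicular inhibitory amino acid transporter gene Slc32a1 (-1.76 ± 0.23) were also called below. These 3 and Grik2 were not called without centring. The genes called above were Slc17a7, the vesicular glutamate transporter VGLUT1, at 1.09, 1.94 and 2.93 (mean 2.04 ± 0.76, SD, n = 6, limma treat adjusted p = 0.00871), and the noradrenaline transporter gene Slc6a2, at 1.35, 1.91 and 2.26 (mean 1.86 ± 0.37, limma treat adjusted p = 0.00121). All 6 animals were above 2-fold for both genes.

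Markers of catecholamine, serotonin and hindbrain visceral neurons were few. Of 50 listed genes, 16 were measured. Of these, 1 (Slc6a2, 6.25%) was called above and 3 (18.8%) below, beside 12.5% and 17.6% of all genes. The list median was 0.33. Of 5 defining markers of brainstem catecholamine neurons, 2 were measured and neither was called. These were the vesicular monoamine transporter gene Slc18a2, at 0.66, 0.84 and 1.29 (mean 0.88 ± 0.24, SD, n = 6), and the transcription factor gene Phox2a, at -0.02 ± 0.26. The marker enzymes Th and Dbh were not analysed here. Gch1, the first enzyme of tetrahydrobiopterin synthesis, ranged from 0.34 to 2.48 (mean 1.45 ± 0.85) and was not called, while Spr, the last enzyme of that pathway, was called below at -2.02 ± 0.34, though not without centring. Also called below were the GDNF co-receptor gene Gfra1, at -3.40, -3.04 and -2.74 (mean -3.08 ± 0.23, limma treat adjusted p = 3.33e-06), and Agt, at -3.20 ± 0.39.

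Neuropeptides and hormones had a median of -0.57 over 21 measured genes. Calls above numbered 2 (9.52%) and calls below 5 (23.8%), beside 12.5% and 17.6% of all genes. Relative to all genes the median was -0.51, and -0.33 with each run of feature numbers centred on its own median. Penk, the precursor of the enkephalin opioid peptides, lay at 2.58, 3.03 and 3.68 (mean 3.07 ± 0.39, SD, n = 6, limma treat adjusted p = 1.11e-05). Cck, the precursor of cholecystokinin, was measured in 5 animals, at 0.99, 2.49, 3.15, 4.59 and 5.64 (mean 3.37 ± 1.81, SD, limma treat adjusted p = 0.0132), and its call was lost with the zeros kept. The Penk animals lay close together and the Cck animals were spread over more than 4 log2 units.

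Angiotensinogen, Agt, the precursor of angiotensin and in brain largely a product of astrocytes, lay at -3.50, -3.41 and -2.67 (mean -3.20 ± 0.39, SD, n = 6, limma treat adjusted p = 8.28e-06). Islet amyloid polypeptide, Iapp, lay at -3.35, -3.10 and -2.60 (mean -3.04 ± 0.32, limma treat adjusted p = 6.62e-06). Both were more than 4-fold below the array median in every animal. Calca, which codes for calcitonin and CGRP, was at the edge of the test: -2.16, -1.32 and -1.01 in the lowest, median and highest animal (mean -1.41 ± 0.39, limma treat adjusted p = 0.0491). Its call was lost without animal 1, 2, 4, 5 or 6, with the zeros kept and without centring. The feeding peptide Npy was at -1.23 ± 0.25 and oxytocin, Oxt, at 1.32 ± 0.69, neither of them called. Vasopressin (Avp, -0.72 ± 0.10), thyrotropin-releasing hormone (Trh, -0.49 ± 0.13), somatostatin (Sst, -0.03 ± 0.24) and galanin (Gal, 0.10 ± 0.48) were not called either.

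Hox genes mark segments of the hindbrain and spinal cord. With the cofactor genes Pbx3 and Meis2 counted, 9 were measured, 2 (22.2%) called above and 1 (11.1%) below. The shares over all genes were 12.5% and 17.6%, and the list median was -0.03. Relative to the median of all genes the list stood at 0.03, and at -0.11 to 0.66 when 1 animal was left out, with 0.63 without animal 2 and 0.66 without animal 5. Hoxd4 lay at -3.29, -1.75 and -1.22 (mean -2.0 ± 0.76, SD, n = 6) and was not called without centring. Hoxb6 lay at 0.91, 1.45 and 1.70 (mean 1.36 ± 0.27), and its call was lost without animal 1, 4, 5 or 6. Hoxd3 was measured in 5 animals at 1.79, 1.99, 2.00, 2.31 and 5.78, the last in animal 1, and its call was lost without animal 4 or 6 and with the zeros kept. Of 6 forebrain and cerebellar genes measured, 1 (16.7%) was called above and 1 (16.7%) below, with a median of 0.01. The forebrain transcription factor gene Otx1 was far below, at -4.00, -3.48 and -3.08 (mean -3.55 ± 0.37, limma treat adjusted p = 3.72e-06), and Penk was called above at 3.07 ± 0.39. Itpr1 (1.09 ± 0.17), Dlx5 (0.48 ± 0.28), Ppp1r1b (-0.47 ± 0.70) and the cerebellar gene Cbln1 (-0.50 ± 0.29) were not called.

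Of 14 voltage-gated and related channel genes measured, 4 (28.6%) were called below and 0 above, against 17.6% and 12.5% of all genes; with so few members these counts lie close to those shares. The small-conductance calcium-activated potassium channel gene Kcnn3 lay at -3.76, -3.26 and -3.11 (mean -3.33 ± 0.27, SD, n = 6, limma treat adjusted p = 2.98e-06), and Kcnj11, the pore of the ATP-sensitive potassium channel, lay at -3.31, -2.80 and -2.0 (mean -2.75 ± 0.43). The other calls were the auxiliary subunit genes Scn3b (-2.03 ± 0.31) and Cacnb2 (-1.57 ± 0.34), neither of which was called without centring. Cacnb2 averages 2 clones whose features ran from -4.49 to 1.30, on both sides of 0. The leak potassium channel genes Kcnk2 and Kcnk3 had means of 1.79 ± 1.37 and 2.15 ± 1.49 and were not called. Kcnk2 ran from 0.00 in animal 3 to 3.38 in animal 6 and was called without animal 3, and Kcnk3 was called without animal 4 or 5.

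Astrocyte genes were the glial list with the highest median, 0.91 over 20 measured genes. Of these, 9 (45%) were called above and 2 (10%) below, beside 12.5% and 17.6% of all genes. The list median was 0.97 above that of all genes, and 0.50 with a single feature per gene. The highest were Ndrg2, at 2.52, 3.33 and 3.57 (mean 3.19 ± 0.38, SD, n = 6, limma treat adjusted p = 7.61e-06), and Sparcl1, a secreted protein that promotes synapse formation, at 2.54, 2.95 and 3.37 (mean 2.96 ± 0.34, limma treat adjusted p = 9.11e-06). Of the 9 defining astrocyte markers, 5 were measured and 3 of them called above. These were the lipid carrier Apoe (1.93 ± 0.26), Aldoc (1.38 ± 0.27) and S100b (1.80 ± 0.79). The calls of Aldoc and S100b were lost without animal 2, 5 or 6, that of Aldoc also without animal 1, and that of S100b also with the zeros kept. The gap junction gene Gja1 (-1.19 ± 0.61) and the metallothionein gene Mt3 (-1.09 ± 0.22) were not called. Below the reference were Agt and the sodium bicarbonate cotransporter gene Slc4a4 (-1.53 ± 0.24), the latter not without centring.

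Oligodendrocyte and myelin genes had a median of -0.35 over 12 measured. Calls above numbered 2 (16.7%) and calls below 1 (8.33%), beside 12.5% and 17.6% of all genes. Of the defining markers 3 of 9 were measured: Mog, a surface glycoprotein of myelin, at 1.37 ± 0.27 (SD, n = 6), Cnp at 0.11 ± 0.36 and Mag at -1.36 ± 0.52. Mog was called above, and its call was lost without animal 2, 4, 5 or 6. Gelsolin, Gsn, was called above at 1.24, 1.82 and 2.08 (mean 1.76 ± 0.33, limma treat adjusted p = 0.00166), and Ugt8, which makes the galactolipids of myelin, was called below at -2.40, -2.0 and -1.67 (mean -2.02 ± 0.27), though not without centring. Myelin basic protein and proteolipid protein genes were not analysed here.

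Microglia and macrophage genes had a median of -0.06 over 21 measured. Of these, 2 (9.52%) were called above and 5 (23.8%) below, beside 12.5% and 17.6% of all genes. The complement genes C1qa and C1qb, whose products sit in the same complex, gave opposite values, 1.20 ± 0.25 (not called) and -3.77 ± 0.28 (called below, limma treat adjusted p = 2.31e-06). C1qa and C1qb rest on 1 clone each. Among the others, Cyba (-3.02 ± 0.26, SD, n = 6), Mrc1 (-2.09 ± 0.35), Lyve1 (-2.06 ± 0.25) and Ctsd (-1.94 ± 0.30) were called below, the last 3 not without centring. Spp1 (1.78 ± 0.45) and Cd53 (1.5 ± 0.36) were called above, Cd53 not without animal 6. The adaptor gene Tyrobp was at 0.18 ± 0.17.

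Endothelial, vessel wall and meningeal genes had a median of -0.36 over 48 measured. Of these, 3 (6.25%) were called above and 8 (16.7%) below, beside 12.5% and 17.6% of all genes. Relative to all genes the median was -0.30, and -0.13 with each run centred. The chains of type I collagen were both low: Col1a2 lay at -4.45, -3.88 and -3.74 (mean -3.95 ± 0.27, SD, n = 6, limma treat adjusted p = 2.01e-06), and Col1a1 was at -3.39 ± 0.62. The metalloproteinase inhibitor gene Timp2 lay at -4.23, -3.75 and -2.83 (mean -3.59 ± 0.61), more than 4-fold below in all 6 animals. Of 9 collagen genes in the list, counted after their values were seen, 2 were called below, 1 above (Col5a1, 3.06 ± 0.84, SD, n = 5, its call lost with the zeros kept) and 6 were not called. The endothelial surface genes Pecam1 (-1.37 ± 0.39), Cdh5 (-0.05 ± 0.36, features from -1.27 to 1.12), Kdr (0.84 ± 0.36) and Tek (1.10 ± 0.62) were not called. For the choroid plexus, 5 of 19 genes were measured and none of the 5 was called, with transthyretin, Ttr, at -0.92 ± 0.37 and Aqp1 at 1.11 ± 0.62.

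Blood genes had a median of -0.12 over 22 measured. Of these, 3 (13.6%) were called above and 7 (31.8%) below, beside 12.5% and 17.6% of all genes. The beta haemoglobin gene Hbb lay at 1.75, 3.08 and 4.61 (mean 3.09 ± 1.14, SD, n = 6, limma treat adjusted p = 0.00159) and Hbb-b1 at 1.60 ± 0.42, while the alpha haemoglobin gene Hba-a1 was at -0.05 ± 0.20. Hbb and Hbb-b1 are close copies whose clones can share target. S100a8 was called above (2.45 ± 0.62) and its partner in calprotectin, S100a9, was not (0.66 ± 0.25). The granule genes Camp (-2.62 ± 0.41) and Gzma (-2.26 ± 0.35) and the haem synthesis gene Alas2 (-1.87 ± 0.25) were called below, not without centring.

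Genes typical of tissues outside the brain were read in the same way. Skeletal and heart muscle genes had a median of -0.49 over 28 measured. Of these, 1 (3.57%) was called above and 8 (28.6%) below, beside 12.5% and 17.6% of all genes. Myod1, the master regulator of skeletal muscle, was among the lowest of all genes at -5.23, -4.43 and -3.57 (mean -4.42 ± 0.53, SD, n = 6, limma treat adjusted p = 3.35e-06). Of the 4 muscle transcription factor genes Myod1, Myog, Myf6 and Mef2c, counted after their values were seen, 3 were called below. Mef2c, which neurons also use, lost its call without animal 1, 2, 4, 5 or 6, with the zeros kept and without centring. The sarcomere genes Mybpc1 (-3.85 ± 0.24) and Tnnt1 (-3.37 ± 0.52) were low as well, but Myl2 (-0.33 ± 0.13) and Ttn (0.35 ± 0.28) lay near the median. The slow troponin gene Tnni1 was called above at 1.45 ± 0.33, not without animal 4 or 6.

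Epithelial genes of kidney, gut, lung and pancreas had the lowest median of the 25 lists, -0.60 over 33 measured genes. Of these, 11 (33.3%) were called below and 2 (6.06%) above, beside 17.6% and 12.5% of all genes. Digestive enzymes and secretory proteins of the exocrine pancreas made up most of the low members. Of 11 such genes, chosen and counted after their values were seen, 8 were called below and 0 above. A subset chosen in this way cannot be weighed against the shares over all genes. Colipase, Clps, lay at -4.78, -4.15 and -3.06 (mean -4.10 ± 0.63, SD, n = 6, limma treat adjusted p = 8.97e-06) and Reg1a at -4.41, -3.80 and -3.27 (mean -3.78 ± 0.41, limma treat adjusted p = 3.61e-06). Phospholipase Pla2g1b (-3.30 ± 0.38) and chymotrypsinogen Ctrb1 (-3.30 ± 0.31) were similar, and trypsinogen Prss2 was at 0.89 ± 0.29. In every animal Clps and Reg1a were more than 4-fold below the array median. The kidney gene Umod was called above in 5 animals (2.76 ± 1.20), but not with the zeros kept.

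Of 45 liver genes measured, with a median of -0.40, 29 had a negative mean. Of the 45, 8 (17.8%) were called above and 4 (8.89%) below, beside 12.5% and 17.6% of all genes. Itih3, a plasma protein that binds hyaluronan, lay at 2.06, 2.52 and 2.86 (mean 2.49 ± 0.30, SD, n = 6, limma treat adjusted p = 2.73e-05), and apolipoprotein Apoa1 was at 1.93 ± 0.25. Mannose-binding lectin, Mbl1, lay at -4.03, -3.10 and -2.62 (mean -3.24 ± 0.55, limma treat adjusted p = 2.63e-05). Most of the list, 33 of 45, was not called, among them the fibrinogen gene Fga (-0.66 ± 0.41) and the transferrin gene Tf (0.39 ± 0.27). Testis and ovary genes, 14 measured, had 3 (21.4%) called above and 2 (14.3%) below. The sperm chromatin gene Tnp2 (-3.50 ± 0.39) and the luteinising hormone receptor gene Lhcgr (-3.34 ± 0.22) were the low members, and the inhibin alpha gene Inha (1.75 ± 0.12) was the highest.

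Of 39 oxidative phosphorylation genes measured, 11 (28.2%) were called above and 2 (5.13%) below, beside 12.5% and 17.6% of all genes. The list median was 0.59. Cox6c, a nuclear-coded subunit of cytochrome oxidase, was at 2.42, 2.53 and 2.60 (mean 2.52 ± 0.07, SD, n = 6, limma treat adjusted p = 4.59e-06), among the 8 smallest SDs of all called genes. The complex I subunit genes Ndufb4 (2.14 ± 0.28), Ndufc2 (2.06 ± 0.18), Ndufa6 (2.01 ± 0.49) and Ndufa7 (2.38 ± 0.65) were called above and Ndufa11 below (-3.38, -2.90 and -2.71, mean -2.96 ± 0.25). The other gene below was Cox6a2 (-3.25 ± 0.47), the isoform of heart and skeletal muscle. Its counterpart in other tissues, Cox6a1, was at -0.15 ± 0.20.

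Glycolysis and citrate cycle genes had the highest median of the 25 lists, 1.00 over 31 measured. Calls above numbered 7 (22.6%) and calls below 4 (12.9%), beside 12.5% and 17.6% of all genes. Here too the isoforms were apart. Neuronal enolase Eno2 was at 3.00 ± 0.36 (SD, n = 6) and the general enolase Eno1 at 1.25 ± 0.16, not called. The muscle phosphoglycerate mutase gene Pgam2 lay at -3.16, -2.54 and -1.33 (mean -2.42 ± 0.71, limma treat adjusted p = 0.0012), not called without centring. The pyruvate dehydrogenase gene Pdhb (2.38 ± 0.24) and the aspartate aminotransferase gene Got1 (2.38 ± 0.33) were called above, while citrate synthase, Cs (-1.67 ± 0.29), and the glucose transporter gene Slc2a1 (-1.83 ± 0.68) were called below, neither without centring. Pdp1, the phosphatase that activates pyruvate dehydrogenase, ran from 2.74 to 5.53 (mean 3.47 ± 1.03), and its call was lost with the zeros kept.

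Of the cytosolic ribosomal proteins, 39 genes were measured (median 0.67). Calls above numbered 10 (25.6%) and calls below 1 (2.56%), beside 12.5% and 17.6% of all genes. The calls of Rpl7 and Rpl21 were lost without some single animals, and those of Rps7, Rps20 and Rpl21 with each run centred. Rps23 lay at 1.94, 2.60 and 3.20 (mean 2.64 ± 0.48, SD, n = 6, limma treat adjusted p = 8.57e-05), and Rpl6 was at 2.29 ± 0.25. Rpl39 was the single low member, at -3.53, -2.62 and -2.19 (mean -2.75 ± 0.54, limma treat adjusted p = 9.49e-05). Rps29 was measured in 5 animals, at 0.54, 1.83, 2.56, 3.64 and 7.46, and was not called. Ribosomal protein genes have many processed pseudogenes, so these clones may hold near copies.

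Lipid, cholesterol and detoxification enzymes had 14 (17.9%) called above and 7 (8.97%) below of 78 measured (median 0.26). The shares over all genes were 12.5% and 17.6%. Among the ethanol and aldehyde enzymes, Aldh1a1 (1.79 ± 0.27, SD, n = 6) and Adh4 (1.76 ± 0.38) were called above, while Aldh2 (-0.21 ± 0.22), Cat (0.76 ± 0.19) and Cyp2e1 (-1.10 ± 0.52) were not called. Superoxide dismutase Sod1 (1.92 ± 0.23) was called above and the extracellular form Sod3 (-1.60 ± 0.20) below, the latter not without centring. The lowest gene of the list was Por, the electron donor of the P450 enzymes, at -4.23, -3.85 and -3.33 (mean -3.84 ± 0.29, limma treat adjusted p = 2.31e-06).

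Heat shock, chaperone and proteasome genes had 9 (19.1%) above and 8 (17.0%) below of 47 (median 0.00), beside 12.5% and 17.6% of all genes. Subunits of a single complex were split. Of the cytosolic chaperonin, Cct6a (-4.28 ± 0.29, SD, n = 6) and Tcp1 (-3.46 ± 0.61) were called below and Cct3 (2.08 ± 0.30) above. Of the proteasome, Psmd12 (1.99 ± 0.17) and Psmc4 (1.95 ± 0.19) were called above and Psmd7 (-2.53 ± 0.33) below, the last not without centring. Each of these genes held the same side in all 6 animals, but they were named with their calls on these same values known.

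Signalling genes had 12 (18.5%) above and 11 (16.9%) below of 65 (median 0.13), beside 12.5% and 17.6% of all genes. Gnas, the stimulatory G protein alpha subunit, lay at 2.31, 2.63 and 3.10 (mean 2.68 ± 0.31, SD, n = 6, limma treat adjusted p = 1.54e-05), and the gamma subunit gene Gng7 was at 2.15 ± 0.29. Gsk3b, a kinase of the Wnt and insulin pathways, lay at -4.17, -3.73 and -3.06 (mean -3.69 ± 0.42, limma treat adjusted p = 4.17e-06). Adenylyl cyclases are the enzymes that Gnas drives. Of 4 such genes, counted after their values were seen, 2 were called below (Adcy3, -1.77 ± 0.33, and Adcy5, -1.74 ± 0.24), neither without centring. Adcy4 (-1.16 ± 0.30) and Adcy6 (0.13 ± 0.22) were not called. These counts cannot be weighed against the shares over all genes, and a link to Gnas was not tested. Cell cycle and DNA replication genes were even, with 9 (20.5%) above and 9 (20.5%) below of 44 (median 0.15). The highest member was Nusap1, measured in 5 animals and called above (3.23 ± 1.37), but its call was lost with the zeros kept. The microtubule regulator Stmn1, which neurons also express, was high as well (3.10 ± 0.26). The mitotic genes Ccna2 (-3.64 ± 0.70), Bub1b (-3.62 ± 0.33) and Kif11 (-2.93 ± 0.53) were low. The proliferation marker Mki67 was at 0.73 ± 0.31 and was not called.

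The genes farthest from the reference were chosen from those measured on all 6 arrays with every feature on the same side of 0. The 12 highest were Lyl1, Syde1, Ruvbl2, Wnt2, Miox, Anxa7, Cidec, Chchd2l3, Polr1d, 6330403K07Rikl, C3h11orf96 and Scd2, with means from 4.29 down to 3.70. Their SDs ran from 0.38 to 2.68. Each gene rests on 2 spots of 1 clone, and the spots did not always agree. The spot means, over the arrays with a value, were 2.55 and 5.49 for Syde1, 2.00 and 4.93 for C3h11orf96 and 3.73 and 5.36 for Lyl1. They were closer for 6330403K07Rikl (3.75 and 3.75), Chchd2l3 (3.76 and 3.87) and Scd2 (3.68 and 3.72). Lyl1, a blood and endothelial transcription factor gene, lay at 2.92, 4.39 and 5.75 (mean 4.29 ± 0.93, SD, n = 6, limma treat adjusted p = 3.84e-05). C3h11orf96 was spread the most, at 1.10, 3.01 and 8.51 (mean 3.70 ± 2.68), and its call was lost without animal 1 or 6 and with the zeros kept. The calls of Wnt2 and Polr1d were also lost with the zeros kept. Scd2, a brain fatty acid desaturase, was tighter, at 3.14, 3.73 and 4.30 (mean 3.70 ± 0.49, limma treat adjusted p = 6.83e-06).

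The 12 lowest were Inf2, Pak1ip1, Arf2, Mplkip, Myod1, Cct6a, Eef1a2, Cops7a, Dmrt2, Keap1, Pigm and Il1b, with means from -4.88 up to -4.15. Inf2, an actin formin, lay at -4.97, -4.94 and -4.60 (mean -4.88 ± 0.15, SD, n = 6, limma treat adjusted p = 3.11e-07). Eef1a2, the translation elongation factor form of neurons and muscle, lay at -5.16, -4.33 and -3.52 (mean -4.21 ± 0.61, limma treat adjusted p = 6.83e-06), far below other neuronal genes such as Eno2. Keap1, the sensor that holds the antioxidant regulator Nrf2 in check, lay at -4.69, -4.26 and -3.54 (mean -4.18 ± 0.56, limma treat adjusted p = 5.08e-06). The inflammatory cytokine gene Il1b was the most spread of the 12, at -6.38, -3.73 and -3.04 (mean -4.15 ± 1.21), with animal 1 the lowest. Every value of these 12 genes was under -3.

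**Figure D3:**
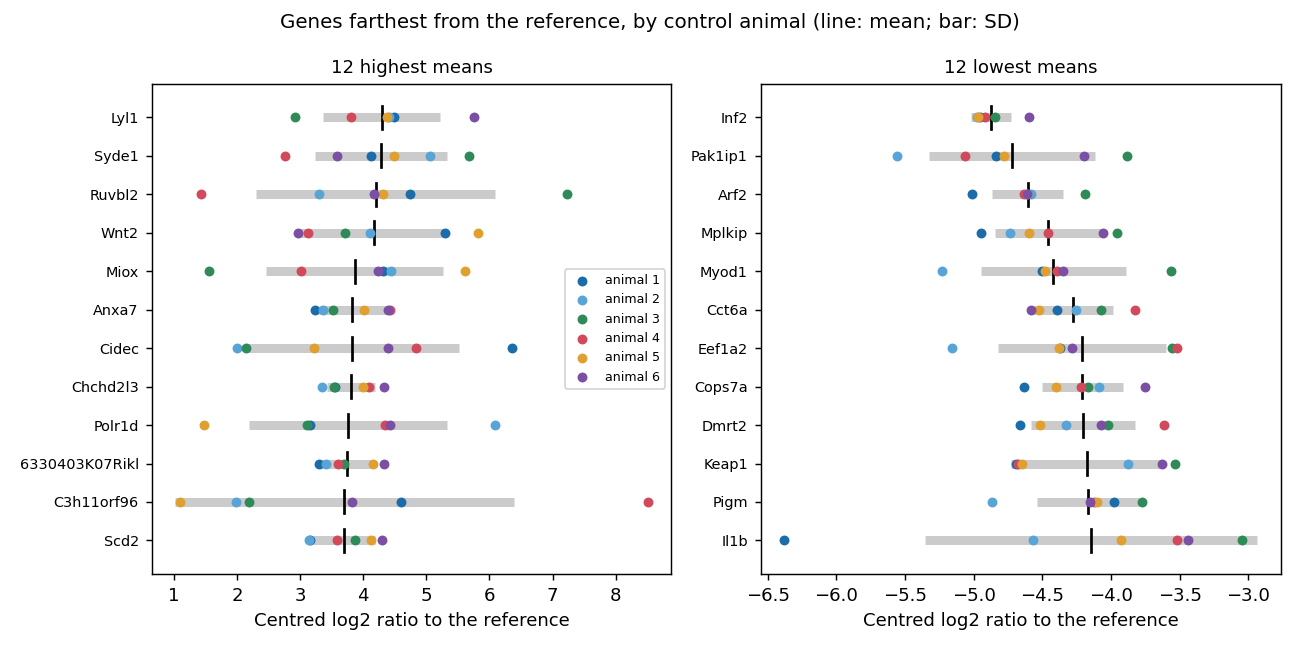
Centred log2 ratio of each control animal (coloured points) for the 12 genes with the highest means (left) and the 12 with the lowest (right), with the mean as a black line and a grey bar of 1 SD to each side; the horizontal scales differ. The high genes spread more between animals (C3h11orf96 from 1.10 to 8.51) than the low ones (Inf2 from -4.97 to -4.60).

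Of the other called genes with the smallest SDs, Tmsb4x, which codes for the actin-binding thymosin beta 4, was at 2.14 ± 0.09 (SD, n = 6), and Sh2b3 (-2.42 ± 0.10), Srpra (-2.13 ± 0.09), Fnbp4 (-1.95 ± 0.09) and Ptpn1 (-1.56 ± 0.07) were below. Actb, beta actin, was also high and even, at 2.42, 2.84 and 3.15 (mean 2.78 ± 0.29, limma treat adjusted p = 9.4e-06). Sh2b3, Srpra, Fnbp4 and Ptpn1 were not called without centring. Bad (-1.28 ± 0.09) lost its call without animal 1, 2, 4, 5 or 6, with the zeros kept and without centring. Vps36 (-1.32 ± 0.09) lost its call without animal 2 and without centring, and its features ran from -3.90 to 0.50 over 3 clones.

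Many of the genes that varied most between the control animals had feature numbers close together. The feature numbers were divided into 48 runs of equal length, a spacing at which the position within a run accounted for 16.6% of the variance of the feature means, or 9.08% among annotated features. The layout of the array was not used here, so where a run lies on the slide is unknown. In run 37 the median ratio was 2.07 in animal 4 and 2.58 in animal 6, against 0.05 to 0.39 in the other 4 animals. In run 15 it was 0.92 in animal 5 and 0.06 to 0.30 in the others. All other run medians lay between -0.88 and 0.40. Among genes with a mean within 2 of 0, the 8 largest SDs, 2.79 or more, were Cmpk2, Dcaf15, Enpp3, Fbxw2, Polr2g, Rbfox2, Slc25a13 and Tmem131, and all 8 lay in run 37. Of the 100 largest SDs, 32 lay in run 37 and 13 in run 15. Polr2g, a subunit of RNA polymerase II, was at -2.96, -2.50, -1.5, 3.38, -1.78 and 5.35 in animals 1 to 6. Both high values were those of animals 4 and 6.

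The same 2 animals were above all others in 44.1% of the 68 run 37 genes with 6 values, and in 4.97% of the 4229 genes of other runs. In run 15, animal 5 was the highest in 55.4% of 65 genes, against 15.9% elsewhere. The median SD of a gene was 1.08 in run 37, 0.53 in run 15 and 0.32 in the rest. Members of the lists in run 37 include S100b, Gap43, Pcsk1n, S100a10, Hspb8, Rps7 and Rpl21, and Cnr1 and Eng lie in run 15. S100a10, for example, was at 5.50 and 4.15 in animals 4 and 6 and at 0.10 to 0.53 in the others. With each run centred on its own median, S100b, Pcsk1n, Rps7, Rpl21 and Eng were not called. The calls of Pcsk1n (without animal 1, 2, 5 or 6) and Rpl21 (without animal 1, 4 or 5) were also lost when an animal was left out, and that of Hspb8 with the zeros kept. What part the run has in other values of these genes was not tested.

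**Figure D4:**
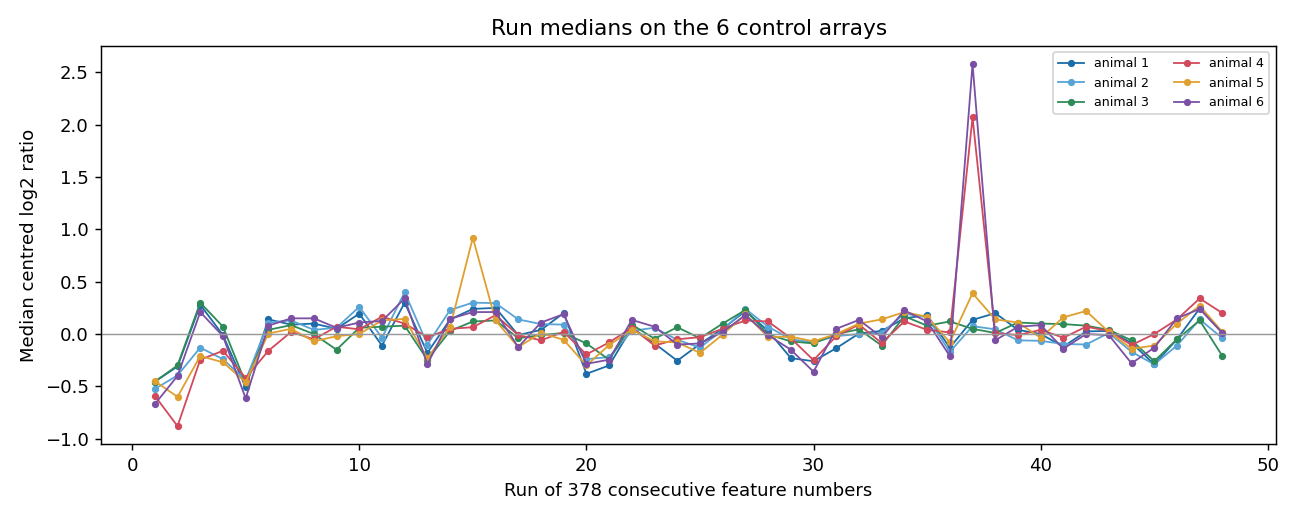
Median centred log2 ratio of each of the 48 runs of consecutive feature numbers on the 6 control arrays, 1 line per animal. Animals 4 and 6 stand at 2.07 and 2.58 in run 37 and animal 5 at 0.92 in run 15, and the other medians lie between -0.88 and 0.40.

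Outside runs 15 and 37, the 24 most variable genes were taken from 2826 genes with 1 clone on 2 neighbouring spots that agreed within 1 log2 unit on every array. Animals 1 and 2 were the 2 lowest in 16 of the 24 and the 2 highest in 4. This was not counted over all 2826 genes, so it is not shown to be particular to the 24. The first principal component also set these 2 animals apart, with animal 6 between them and the rest when both runs were left out. Uqcrfs1, the iron-sulphur subunit of complex III, was at -2.55, -2.62, -1.85, 0.59, -0.08 and -1.0 in animals 1 to 6. Alcam, an adhesion molecule of axons, was at -2.80, -2.05, -0.28, -0.02, -0.13 and -0.77. Atp1b3, another beta subunit of the sodium pump, was at -1.42 and -1.30 in animals 1 and 2 and at 0.20 to 1.00 in the others. The secretory granule chaperone gene Scg5 was at -1.10 and -0.58 in these animals and at 0.66 to 1.42 in the rest. In these 4 genes no value of animals 1 and 2 reached those of the other 4 animals. The 4 were picked with their values known, and such a separation was not counted over all 2826 genes. The growth factor gene Pdgfa went the other way, at 0.05 and 0.04 in animals 1 and 2 and at -1.82 to -0.66 in the rest.

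Some genes set a single animal apart. Crabp2, a retinoic acid binding protein, was at 3.50 in animal 1 and at -2.28 to -1.49 in the other 5, and its spots differed by at most 0.27. Shisa4 was at 3.20 in animal 4 and at -0.19 to 0.44 in the rest. The mitochondrial chaperonin gene Hspe1 was at -0.62 in animal 3 and at 1.10 to 2.08 in the rest. These values come from 1 clone each, and the genes were chosen for their spread.

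**Figure D5:**
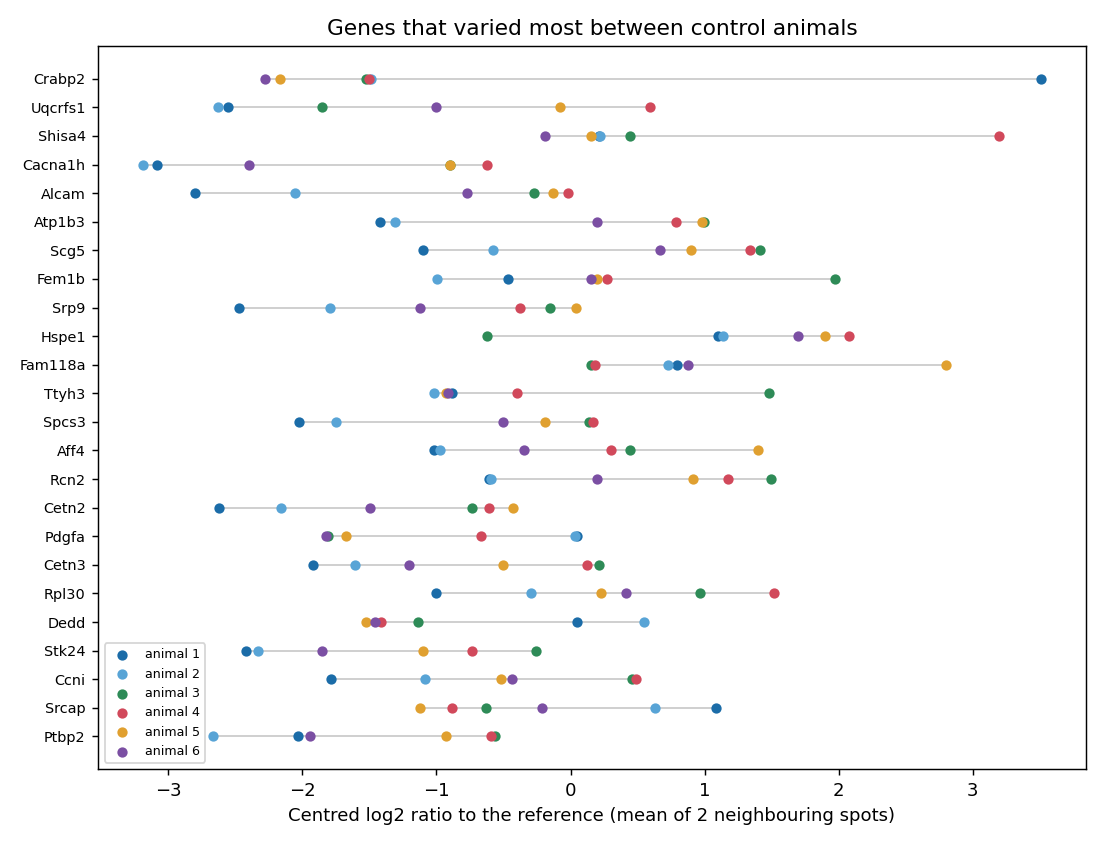
Centred log2 ratio of each control animal for the 24 genes with the largest SD outside runs 15 and 37, each the mean of 2 neighbouring spots, with a grey line from the lowest to the highest animal. Animals 1 and 2 (blue) are the 2 lowest in 16 of the 24, a count not made over all genes, and Crabp2 in animal 1 and Shisa4 in animal 4 stand alone.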

How the data were processed

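The deposited value table holds log2 ratios of Cy5 (animal) to Cy3 (reference) per feature, taken as log2 from the values and the dyes in the labels; the authors' background correction, normalization and the meaning of exact zeros are not given in the sources used here. Columns were matched to animals by their titles, and 0 columns with values of a sample were left unassigned. Zeros were set to missing, the median of each array was subtracted, and gene values are means over features that GEO's platform annotation gives the same lone symbol. Features without a single symbol stayed in the fit as rows of their own (11878 rows, 7385 of them unnamed). limma 3.58.1 in R 4.3.3 fitted the mean over 6 animals, and treat tested it against 2-fold with Benjamini-Hochberg adjustment over all rows. The script was tested on simulated data. Tables were made in Python 3.11.15 with pandas 2.3.3 and numpy 2.4.6. The table holds no intensities, and precision is limited by the number of arrays, by missing values at high ratios, by shifts of runs 15 and 37 and by differences between clones.

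The genes named by rule include the 12 highest and 12 lowest called means with all features on 1 side. The rules also took the 2 highest and 2 lowest means of each list. To these come the 8 largest SDs among genes with means within 2 of 0 and the 8 smallest SDs among called genes. The last are 11 further genes, of which 9 were measured. Some genes picked by rule are not described above. Among them are Bin1, Map3k1, Prdx3 and Hyou1, high list members measured in 5 animals, whose calls were lost with the zeros kept. Other genes were named after their values were seen, as were the 24 variable genes. The control arrays, lists and genes were chosen with earlier results of these data known. Alternatives changed the centring, the zeros, the averaging, the minimum number of arrays, the test and the animals. No sequences were used here.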

Additional observations from a re-analysis of the deposited data

Results flagged for a closer look

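In 10 of 144 gene-wise groups of 5 or 6 animals, 1 animal lay so far from the nearest other that the gap, as a share of the range, passed Dixon's critical value. Chance gives about 7 of 144 where groups are not chosen by their values. Many of these groups are genes chosen for their means or SDs in these same data, so the 10 cannot be weighed against that number. In animal 6, Calca was at -2.16 (others -1.40 to -1.01), Inf2 at -4.60 (others -4.97 to -4.85), Slc25a13 at 6.85 (others -0.70 to 0.69) and Sod2 at 6.68 (others 1.34 to 2.67). In animal 5, Cnr1 was at 4.01 (others 1.05 to 1.67) and Col1a2 at -4.45 (others -3.99 to -3.74). In animal 2, Col5a1 was at 4.55 (others 2.60 to 2.88) and Pigm at -4.87 (others -4.15 to -3.77). Hoxd3 was at 5.78 in animal 1 (others 1.79 to 2.31) and Pdp1 at 5.53 in animal 3 (others 2.74 to 3.38). Slc25a13 lies in run 37, where animal 6 had the highest median, and Cnr1 in run 15, where animal 5 did.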

How the results depend on the processing

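No paired analysis was possible because only the control animals were used. Counts of calls moved with the test: against a ratio of 0, limma's eBayes called 1714 above and 1811 below, treat at 4-fold 64 and 336, and without centring 1211 and 300. Leaving out 1 animal gave 473 to 559 above and 744 to 798 below. Of 400 alternative values of list medians relative to all genes, 382 moved by less than the spread between animals. With a single feature per gene the astrocyte difference was 0.50 (0.97 before) and that of microglia 0.23 (0.00). Hox genes moved from 0.03 to 0.52 with at least 3 arrays. Leaving out 1 animal gave -0.11 to 0.66 for Hox genes (0.66 without animal 5, 0.63 without animal 2), -0.096 to 0.082 for microglia, -0.65 to -0.45 for neuropeptides and 0.29 to 0.57 for testis genes. The next alternatives were chosen after seeing the data. With runs 15 and 37 left out, the difference was 0.74 for neurons, 0.84 for astrocytes and -0.60 for muscle. With each run centred, it was 0.73 for neurons, -0.33 for neuropeptides, -0.13 for vessel wall genes, 0.51 for testis genes, 0.84 for glycolysis and 0.45 for lipid enzymes. The median SD per gene rose from 0.34 to 0.70 without centring, and the median correlation of arrays was 0.85 with zeros kept and 0.91 with both runs left out. Of 111 called genes named by rule, 12 lost the call without some animal, 19 with zeros kept and 16 without centring. None of these 111 changed side. Without centring the median of all genes rose from -0.06 to 0.86, so uncalled genes with small negative means turned positive. In that setting 10 of the 141 named genes were counted as moved. Except where the construction shows it, the cause was not tested.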

Other observations

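The 62 features with a mean ratio above 6 were nearly all at the same places. Of these, 58 lay at 4 positions that recur in every run and carry no annotation, with position means of 4.16 to 4.32, and 1 of the 62 was annotated. In all, 26 positions of a run held no annotated feature. Leaving every unannotated feature out of the fit gave 567 genes above and 799 below, in place of 563 and 790; this alternative was chosen after seeing the data.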
